A study of Mus musculus with 4 samples.

Results

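The genes described here are 40 genes of the endogenous pluripotency network, measured in mouse embryonic fibroblasts (MEFs) in the course of reprogramming. They were chosen by name, from a list of 42 symbols of embryonic stem cell regulators, signalling components and marker genes, by a rule that names no measured value. Lin28 and Tcfcp2l1 in that list are older names of Lin28a and Tfcp2l1, so that 40 genes remained, represented by 61 of the 55681 probes. The whole array held 34821 genes or transcripts by name.

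RNA was hybridised to 4 single-colour (Cy3) arrays, 1 for each group, at 8 days postinfection (dpi). The fibroblasts were taken from male E13.5 embryos of Oct4-EGFP transgenic mice, and cells of several embryos were pooled. All 4 groups received retroviruses for Oct4, Sox2 and Klf4 (OSK), and 2 of the groups also received AKT-MER (OSKA), a myristoylated AKT kinase joined to a modified estrogen receptor that is switched on by 4-hydroxytamoxifen (4OHT). Each infection was followed from day 3 by 4OHT or by its vehicle, giving the groups OSK − 4OHT, OSK + 4OHT, OSKA − 4OHT and OSKA + 4OHT. The cultures were analysed in bulk, so infected and uninfected cells were measured together. Fewer cells of a type and less RNA per cell cannot be told apart in such samples. The free-text note of the OSKA + 4OHT array states that AKT-MER was not activated, against its title, and the title was used. No array of untreated fibroblasts or of embryonic stem cells was among the 4, so the levels below have no reference at either end of reprogramming.

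Levels are log2 intensities minus the 75th percentile of the array, and a difference is a level minus another level of the same probe. A probe counts as measured in a comparison where both arrays were well above background. With 1 array per group no test between groups was possible, and the software error given in parentheses after a difference is that of both readings combined, without any variation between cultures. Between 52.4% and 55.4% of the spots were well above background, and no spot was saturated. The brightest Esr1 probe, which reads the receptor used in AKT-MER, was lost in the background on both OSK arrays and stood at 3.11 and 3.32 on the OSKA arrays, at least 219-fold and 233-fold higher, which bears on the presence of AKT-MER and not on 4OHT. All 15 fibroblast markers and all 6 blood cell markers were well above background on the 4 arrays, and the 3 endothelial markers besides Cdh5 were too, with summed levels between 3.00 and 3.57. Only Ddx4 of 7 germ cell markers was well above background, and Gata4, Sox17, Cdx2, Eomes and Elf5 of the 8 extraembryonic markers were on no array.

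Pluripotent cells keep their state through a set of transcription factors that bind to their own and to each other's genes, among them Oct4, Sox2, Nanog and Esrrb. In fibroblasts this network is silent, and the genes are switched on at different stages of reprogramming, some early in many cells and others only in the few cells that come close to the embryonic stem cell state. LIF, acting through Stat3, sustains the naive state in mouse cells, whereas Nodal and FGF signals accompany the step towards the primed epiblast.

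Nanog, the homeodomain factor most used to recognise late reprogramming, was read by 3 probes on chromosome 6 (NCBI37), at chr6:122663676-122663735, chr6:122664590-122664649 and chr6:122663514-122663573, all on the plus strand. The first 30 bases of each are shown because their readings differed, with capitals marking bases held in common with a probe of another gene in a run of at least 25.
A_55_P2007699: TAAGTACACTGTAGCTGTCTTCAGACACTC
A_55_P2007708: ccatgatgaaccgatgccagctggactagt
A_55_P2007703: accccacaagccttggaattattcctgaac
Of the 60 bases of A_55_P2007699, 40 lay in such shared stretches. The longest, of 37 bases, was held on the opposite strand by a probe of BC028528, and others of 25 to 36 bases by probes of Pbld1, Synrg, Phyhd1 and Apopt1. Those 5 probes had levels between 7.98 and 8.86 on the 4 arrays. A stretch of 26 bases was held on the same strand by a dim probe of Zfp872. No other probe of the 40 genes shared 25 bases with a probe of another gene.

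Promoter sequence was at hand in RefSeq (GRCm38.p6) for 28 of the 40 genes. The 250 bases before the start sites of L1td1 (chr4:98726504-98726753, plus strand) and Tfcp2l1 (chr1:118627695-118627944, plus strand) are printed because both genes, with Fbxo15, which is not among the 28, were lowest on OSKA − 4OHT as described further on. Capitals mark the letters GGGCGTGG, a form of the KLF motif, on either strand.
L1td1: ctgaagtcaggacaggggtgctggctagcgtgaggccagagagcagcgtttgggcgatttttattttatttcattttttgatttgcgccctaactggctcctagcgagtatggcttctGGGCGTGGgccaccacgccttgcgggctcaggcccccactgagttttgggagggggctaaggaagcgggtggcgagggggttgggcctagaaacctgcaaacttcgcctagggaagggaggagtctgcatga
Tfcp2l1: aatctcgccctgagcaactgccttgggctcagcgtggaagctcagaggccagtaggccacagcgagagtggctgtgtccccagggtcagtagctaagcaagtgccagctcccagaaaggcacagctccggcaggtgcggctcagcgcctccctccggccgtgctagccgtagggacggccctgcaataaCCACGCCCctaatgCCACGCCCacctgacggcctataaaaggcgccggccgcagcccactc
The L1td1 sequence held 1 match, with its first base at -132 from the start site, and 11 CpG dinucleotides. The Tfcp2l1 sequence held 2 matches and 16 CpG dinucleotides. All 28 genes were searched in windows of 300 bases, which add the 50 bases after the start site, and a gene with several windows counted where any of them matched. Over both strands, GGGCGTGG was present in the windows of 6 of the 28 genes (Foxd3, L1td1, Nanog, Nr5a2, Tdgf1 and Tfcp2l1) and of 6.06% of 27025 genes. The octamer ATGCAAAT, bound by Oct4, was present in Zfp296 and Zfp42 and in 1.97% of all genes. GGGTGTGG was present in Sox15 and Zfp42, against 4.09% of all genes. CATTGTT (SOX), TCAAGGTCA (ESRRB) and TTCCNGGAA (STAT) were in the windows of none of the 28 genes, and in 4.33%, 0.466% and 1.35% of all genes. By the window richest in CpG dinucleotides, the 28 genes held a median of 14.5 in the 300 bases, against 8 for all genes, with 14 for L1td1 and 21 for Tfcp2l1.

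Of the 40 genes, 28 were well above background on all 4 arrays (70%, against 56.1% of all genes on the array), and 9 were not on any array by any probe. By the brightest probe 10 were on none (25%, against 34.8% of all genes). The 9 were Dppa2, Eras, Esrrb, Nr0b1, Nr5a2, Prdm14, Sox15, Tcl1 and Zfp42. They include Zfp42 (Rex1) and Esrrb, which are used as markers of the late, naive state. Zfp42 had levels of -6.78, -5.70, -7.02 and -6.81 on OSK − 4OHT, OSK + 4OHT, OSKA − 4OHT and OSKA + 4OHT, none of them well above background, with software errors of 1.45, 0.75, 1.45 and 1.45. Nr0b1 (Dax1) was printed in 10 spots. On OSK − 4OHT, 2 of its 10 spots were above background, with intensities of 132.6 and 54.4, and both were marked as outliers of their repeats. On the other 3 arrays none of its 10 spots was. By role, all 6 ligands and coreceptors, all 4 RNA-binding factors and all 3 components of the LIF pathway were on every array, as were 11 of 19 transcription factors. Pou5f1 (Oct4) itself had levels of 1.81, 1.23, 1.29 and 1.71 in the same order, but whether its probe also reads the transgene was not analysed here. Sox2, likewise carried by a virus, was at background by its brightest probe on every array.

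**Figure D1:**
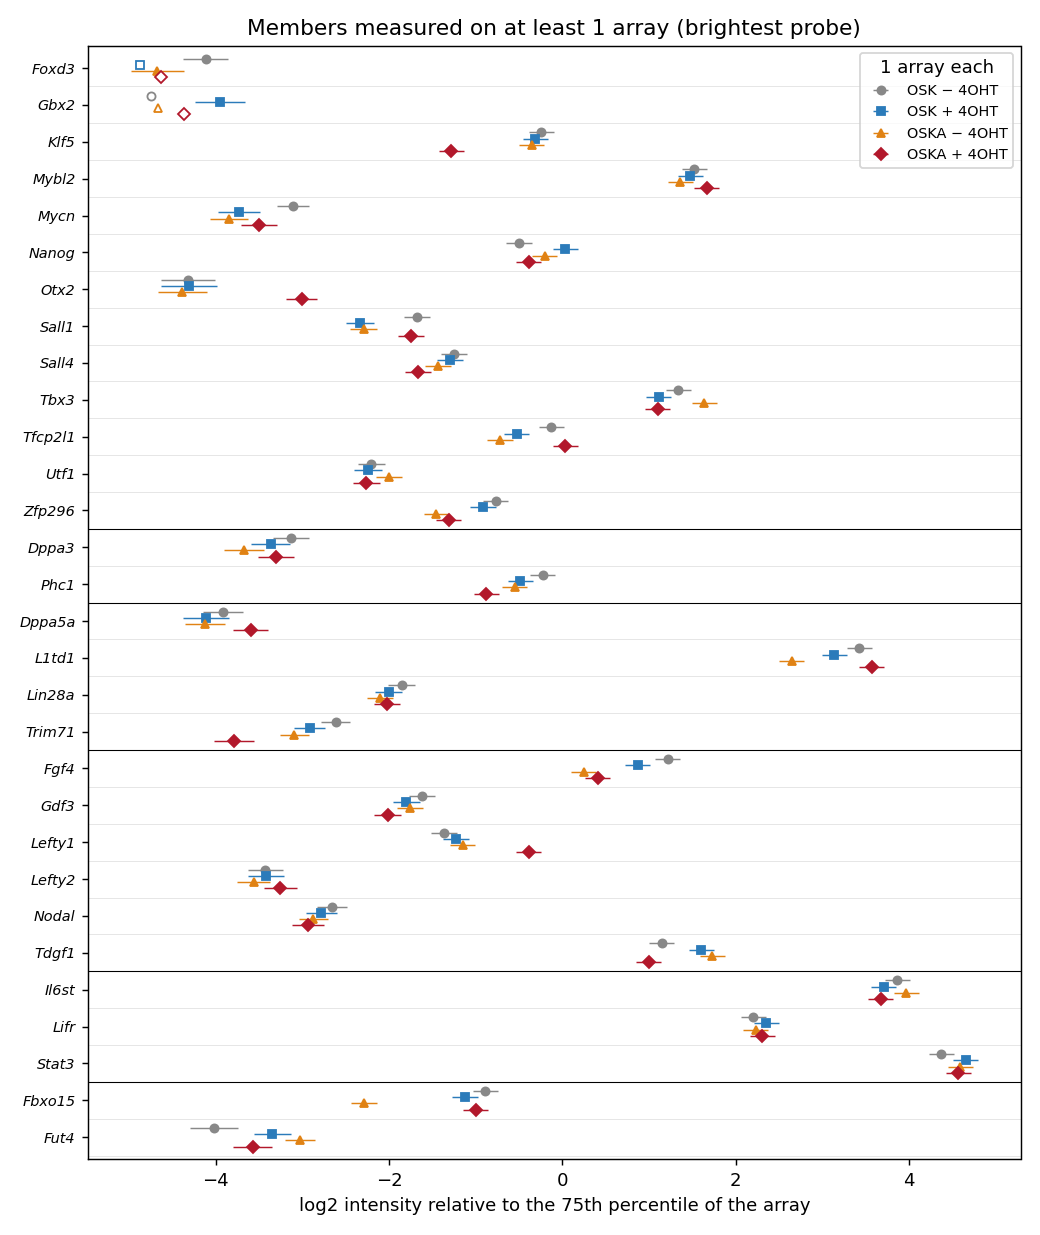
Levels of the 30 genes whose brightest probe was well above background on at least 1 array (x axis, log2 intensity minus the array's 75th percentile; 1 symbol per array, filled where well above background, open where not; bars are the software error, and lines separate the roles). Levels may be compared only within a gene: for Fbxo15 and L1td1 the OSKA − 4OHT symbol lies lowest, and for Klf5 and Trim71 the OSKA + 4OHT symbol does.

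Among the transcription factors, Nanog gave different answers by probe. By its brightest probe, A_55_P2007699, the levels were -0.50, 0.03, -0.20 and -0.39 on OSK − 4OHT, OSK + 4OHT, OSKA − 4OHT and OSKA + 4OHT, the order kept for all genes below. This is the probe with the shared sequence, and it was highest on OSK + 4OHT. Its 4OHT difference was 0.53 (software error 0.21) in OSK cells and -0.19 (0.20) in OSKA cells, and its AKT-MER difference 0.30 without 4OHT and -0.42 with 4OHT. A_55_P2007708 read -2.11, -2.64, -2.90 and -2.79, highest on OSK − 4OHT. Its differences were -0.53 (0.23) and 0.11 for 4OHT, and -0.79 and -0.15 for AKT-MER. In OSK cells the 2 probes thus differed in the sign of the 4OHT difference, each by more than 2 software errors. The third probe, A_55_P2007703, was well above background on OSKA + 4OHT alone, at -4.0. This gave a level at least 1.87-fold higher with 4OHT in OSKA cells.

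**Figure D2:**
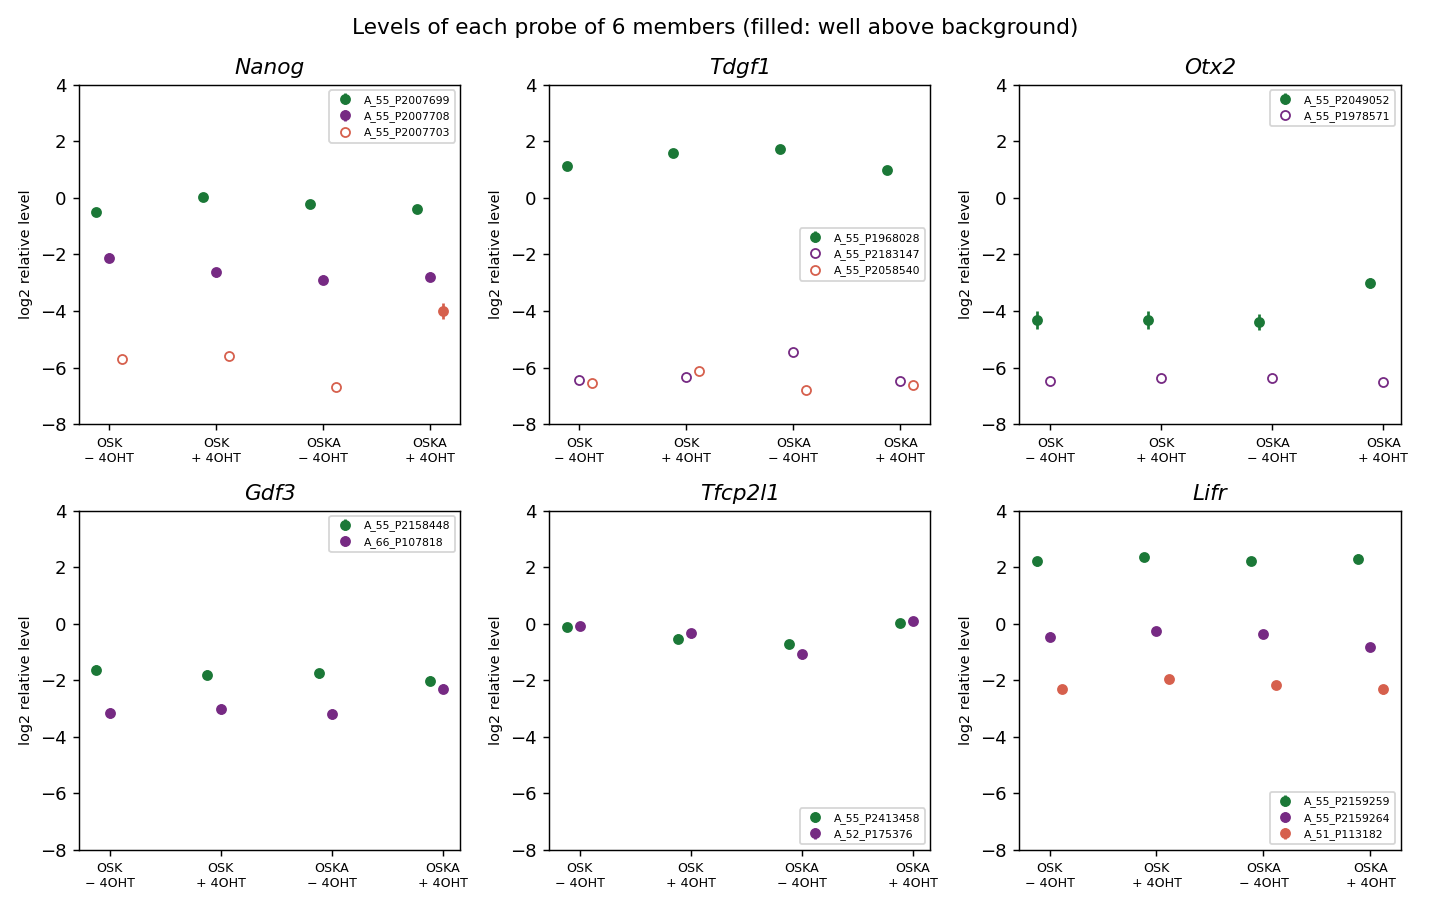
Levels of every probe of 6 genes (y axis, log2 intensity minus the array's 75th percentile) on the 4 arrays (x axis), filled where well above background and open where not, with the software error as bars on filled points. In Nanog the green probe was highest on OSK + 4OHT and the purple one on OSK − 4OHT, in Tfcp2l1 both probes were lowest on OSKA − 4OHT, and in Otx2 and Tdgf1 a single probe was well above background.

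Tfcp2l1, a naive-state factor downstream of LIF and Stat3, had levels of -0.13, -0.53, -0.72 and 0.03. It was lowest on OSKA − 4OHT and highest on OSKA + 4OHT. The 4OHT difference was -0.40 (0.21) in OSK cells and 0.75 (0.21) in OSKA cells, or 1.68-fold, and the AKT-MER difference -0.59 without and 0.56 with 4OHT. Its second probe read -0.07, -0.35, -1.09 and 0.10, in which OSKA − 4OHT was again lowest, and its 4OHT difference in OSKA cells was 1.19, or 2.28-fold.

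Otx2, a factor of the primed epiblast and of the anterior nervous system, read -4.32, -4.31, -4.39 and -3.01 by A_55_P2049052. OSKA + 4OHT stood above the other 3 arrays, which lay close together. The differences were 0.01 for 4OHT in OSK cells and -0.07 for AKT-MER without 4OHT. They were 1.38 (0.33), or 2.60-fold, for 4OHT in OSKA cells and 1.30 (0.37), or 2.46-fold, for AKT-MER with 4OHT, both of which contain the OSKA + 4OHT array. The other Otx2 probe, which is the one with a RefSeq match, stayed at background on all arrays.

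Klf5, a Krüppel-like factor that shares sites with Klf2 and Klf4, showed the reverse on the same array. Its levels were -0.25, -0.31, -0.35 and -1.28, with OSKA + 4OHT alone low. The difference was -0.93 (0.21), or 1.9-fold lower, for 4OHT in OSKA cells and -0.97 (0.21), or 1.96-fold lower, for AKT-MER with 4OHT, against -0.07 and -0.11 in the other comparisons. Sall1, a zinc finger partner of Nanog, had levels of -1.68, -2.33, -2.29 and -1.75. It was lower with 4OHT in OSK cells (-0.65, error 0.22) and higher in OSKA cells (0.55, error 0.22), and its AKT-MER differences were -0.61 without and 0.59 with 4OHT. Its relative Sall4, a regulator of Oct4 expression, had levels of -1.25, -1.30, -1.43 and -1.67, with differences of -0.04 and -0.24 for 4OHT and -0.18 and -0.37 for AKT-MER.

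Mycn, a MYC family factor, had levels of -3.11, -3.73, -3.85 and -3.50, highest on OSK − 4OHT. Its differences were -0.63 (0.30) and 0.35 for 4OHT, and -0.74 (0.29) and 0.23 for AKT-MER. Zfp296, a Klf4-interacting zinc finger protein, had levels of -0.77, -0.92, -1.46 and -1.31. It was lower on both OSKA arrays, with AKT-MER differences of -0.69 and -0.40, the first past 2 software errors, while its 4OHT differences were -0.15 and 0.14. Tbx3, a T-box factor of the naive state, had levels of 1.34, 1.11, 1.64 and 1.10, and its differences were -0.22 and -0.54 for 4OHT and 0.30 and -0.01 for AKT-MER. Only the 4OHT difference in OSKA cells exceeded 2 software errors.

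Utf1, a chromatin-associated factor often used as a late marker, had levels of -2.20, -2.25, -2.0 and -2.26. Its differences were -0.04 and -0.27 for 4OHT and 0.21 and -0.02 for AKT-MER. The cell cycle factor Mybl2 had levels of 1.52, 1.48, 1.36 and 1.67, with differences of -0.04, 0.30, -0.16 and 0.19 in the order 4OHT in OSK, 4OHT in OSKA, AKT-MER without and AKT-MER with 4OHT. Neither gene differed by more than 2 software errors in any comparison. Foxd3, a forkhead factor of the stem cell state, was well above background on both arrays without 4OHT (-4.12 and -4.68), and on neither array with 4OHT, and its AKT-MER difference without 4OHT was -0.56 (0.40). Gbx2, a target of Stat3, was so on OSK + 4OHT only, at -3.95, which gave at least a 1.64-fold difference for 4OHT in OSK cells.

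In the group of chromatin and early embryo factors, Phc1, a Polycomb subunit, had levels of -0.23, -0.48, -0.55 and -0.88. Its differences were -0.26 and -0.33 for 4OHT and -0.33 and -0.39 for AKT-MER, and none exceeded 2 software errors. Its dimmer probe was well above background on the OSKA arrays only, with a 4OHT difference of -0.07. Dppa3 (Stella), a maternal factor that protects DNA methylation, had levels of -3.13, -3.37, -3.67 and -3.30 and differences of -0.23, 0.37, -0.54 and 0.07, in the order of comparisons used for Mybl2. Dppa4 was well above background only on OSKA − 4OHT and only by one of its 3 probes, at -4.26.

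Of the RNA-binding factors, L1td1, which associates with Lin28 in stem cells, had levels of 3.43, 3.14, 2.64 and 3.57. OSKA − 4OHT was lowest and OSKA + 4OHT highest, as for Tfcp2l1. The 4OHT difference was -0.29 (0.20) in OSK cells and 0.93 (0.20), or 1.9-fold, in OSKA cells, and the AKT-MER difference -0.78 (0.20) without and 0.43 (0.20) with 4OHT. Trim71 (Lin41), a target of let-7, had levels of -2.62, -2.91, -3.09 and -3.79, lowest on OSKA + 4OHT. Its differences were -0.30 and -0.70 (0.29) for 4OHT and -0.48 and -0.88 (0.29) for AKT-MER. Lin28a, which blocks let-7 maturation, had levels of -1.85, -2.01, -2.10 and -2.03, with differences of -0.15 and 0.08 for 4OHT and -0.25 and -0.02 for AKT-MER. Dppa5a (Esg1), a KH-domain protein, had levels of -3.92, -4.12, -4.12 and -3.60 and differences of -0.20, 0.53, -0.21 and 0.52, of which none exceeded 2 software errors.

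The ligands and their coreceptor were all measured on every array. Fgf4, an Oct4 and Sox2 target that drives differentiation through ERK, had levels of 1.22, 0.87, 0.25 and 0.41. It was lower on both OSKA arrays, with AKT-MER differences of -0.97 (0.20), or 1.96-fold lower, without 4OHT and -0.46 (0.20) with 4OHT. Its 4OHT differences were -0.35 and 0.16. Lefty1, a Nodal antagonist, had levels of -1.37, -1.23, -1.15 and -0.39, with OSKA + 4OHT alone high. The differences were 0.13 and 0.76 (0.21) for 4OHT and 0.21 and 0.84 (0.21), or 1.79-fold, for AKT-MER. The other antagonist, Lefty2, had levels of -3.43, -3.41, -3.56 and -3.26, and its differences of 0.01, 0.31, -0.14 and 0.16 did not exceed 2 software errors.

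Tdgf1 (Cripto), the coreceptor of Nodal, had levels of 1.15, 1.60, 1.73 and 1.0. It was highest on OSKA − 4OHT, where Tfcp2l1 and L1td1 were lowest. The 4OHT difference was 0.46 (0.20) in OSK cells and -0.73 (0.20) in OSKA cells, and the AKT-MER difference 0.59 without and -0.60 with 4OHT. These rest on 1 of its 3 probes, as the others were not well above background. Nodal had levels of -2.66, -2.78, -2.87 and -2.94, with differences of -0.13 and -0.06 for 4OHT and -0.22 and -0.15 for AKT-MER. Gdf3, a TGF-β family ligand, had levels of -1.62, -1.80, -1.76 and -2.01 by its brightest probe and differences of -0.18, -0.26, -0.14 and -0.21. Its second probe read -3.17, -3.03, -3.21 and -2.30, and there the differences were 0.14, 0.90, -0.04 and 0.72. The probes of Gdf3 thus pointed in opposite directions in both comparisons with OSKA + 4OHT.

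The receptors and the transducer of LIF, a component of the medium, varied little by their brightest probes. Il6st (gp130) had levels of 3.86, 3.71, 3.97 and 3.68, and its differences were -0.15 and -0.29 for 4OHT and 0.10 and -0.03 for AKT-MER. Lifr had levels of 2.20, 2.35, 2.23 and 2.31, with differences of 0.15, 0.07, 0.03 and -0.05 by its brightest probe, in the order used for Mybl2. A dimmer Lifr probe gave -0.45 for 4OHT in OSKA cells and -0.56 for AKT-MER with 4OHT, both past 2 software errors. The third Lifr probe gave -0.15 and -0.36 there, neither past 2 software errors. Stat3 had levels of 4.37, 4.65, 4.59 and 4.57, and differences of 0.28, -0.02, 0.22 and -0.08. None of these by the brightest probe exceeded 2 software errors.

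Among the enzymes and components of kinase pathways, Fbxo15, an F-box protein and an early reporter gene of reprogramming, had levels of -0.89, -1.12, -2.29 and -1.0. OSKA − 4OHT alone was low. The 4OHT difference was -0.23 (0.21) in OSK cells and 1.29 (0.21), or 2.45-fold, in OSKA cells, and the AKT-MER difference -1.40 (0.21), or 2.64-fold lower, without 4OHT and 0.12 with it. Fut4, the fucosyltransferase that makes the SSEA1 antigen, had levels of -4.02, -3.35, -3.03 and -3.58, lowest on OSK − 4OHT. Its differences were 0.67 (0.35) and -0.55 (0.28) for 4OHT and 0.99 (0.33), or 1.99-fold, and -0.23 for AKT-MER. Its other probe was at background. Tcl1, a coactivator of AKT, and Eras, a RAS-like activator of PI3 kinase, are the members closest to the AKT pathway, and both were at background on all 4 arrays.

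The members were then counted against all genes. For 4OHT in OSK cells, 28 were measured, with a median difference of -0.15 and a range from -0.65 to 0.67, and 20 lay below 0. Over the 19861 genes measured, 50.6% lay below 0. No member was 2-fold higher or 2-fold lower, where 0.609% of all genes were higher and 0.277% lower. Foxd3 and Gbx2, well above background on 1 of these arrays only, had bounds under 2-fold. With scaling to spike-in probes the median of all genes moved by -0.31, and 25 of the 28 members and 86.9% of all genes lay below 0. At 1.5-fold, 1 member was higher (Fut4, against 4.33% of all genes) and 2 were lower (Mycn and Sall1, against 1.63%). After normexp background correction and quantile normalization these 3 stood at 0.18, -0.28 and -0.40, and none was past 1.5-fold. Of all genes, 1.54% were then 1.5-fold higher and 0.262% lower. By more than 2 software errors, 2 were higher (Nanog and Tdgf1, against 7.15%) and 2 lower (Mycn and Sall1, against 3.43%). The call of Nanog rests on its probe with shared sequence, and A_55_P2007708 was lower, at -0.53 (0.23).

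For 4OHT in OSKA cells, the step that switches on AKT-MER, 28 were measured, 15 above and 13 below 0, with a median of 0.08 and a range from -0.93 to 1.38. The median of all 20300 genes was -0.03, and 45.2% were above 0. At least 2-fold higher were 2 members, Fbxo15 and Otx2 (2.01% of all genes), and 0 were 2-fold lower (0.901%). After normexp and quantile normalization no member reached 2-fold, with Fbxo15 at 0.88 and Otx2 at 0.53. Of all genes, 0.838% were then 2-fold higher and 0.158% lower. The second probes of Tfcp2l1 and Gdf3, not counted here, were 2.28-fold and 1.87-fold higher. At 1.5-fold, 5 were higher (Fbxo15, L1td1, Lefty1, Otx2 and Tfcp2l1, against 5.06%) and 3 lower (Klf5, Tdgf1 and Trim71, against 4.64%). After normexp and quantile normalization 3 remained higher (Fbxo15, L1td1 and Tfcp2l1, against 2.68% of all genes) and 2 lower (Klf5 and Tdgf1, against 1.45%), and Trim71 stood at -0.22. Past 2 software errors were 6 members higher, Sall1 added (7.34%), and 4 lower, Tbx3 added (8.23%).

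For AKT-MER without 4OHT, 29 were measured, with a median of -0.18 and a range from -1.40 to 0.99, and 20 lay below 0. Of all 20183 genes, 53.0% lay below 0, with a median of -0.02. No member was 2-fold higher (1.09% of all genes) and 1, Fbxo15, was lower (0.931%). After normexp and quantile normalization Fbxo15 stood at -0.99, just under 2-fold, where 0.163% of all genes were 2-fold higher and 0.203% lower. The second Tfcp2l1 probe, not counted here, was 2.03-fold lower (-1.02). At 1.5-fold, 2 were higher (Fut4 and Tdgf1, against 5.66%). The 7 lower by 1.5-fold were Fbxo15, Fgf4, L1td1, Mycn, Sall1, Tfcp2l1 and Zfp296 (3.99%). After normexp and quantile normalization 4 of them remained (Fbxo15, Fgf4, L1td1 and Tfcp2l1, against 1.58% of all genes), and none was higher (2.20%). Past 2 software errors, 2 were higher (9.14%) and 7 lower (6.52%). In no other comparison did the members called at 1.5-fold in a direction stand as far above the share of all genes, and all 7 rest on the same pair of arrays. Nanog is counted here by its brightest probe, while A_55_P2007708 was past 1.5-fold lower at -0.79. With scaling to spike-in probes the median of all genes moved by -0.44, and 27 of the 29 members and 90.3% of all genes lay below 0.

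For AKT-MER with 4OHT, 28 were measured, with a median of -0.03 and a range from -0.97 to 1.30, and 17 lay below 0. The median of all 19846 genes was -0.05, and 57.1% lay below 0. At least 2-fold higher was 1 member, Otx2 (1.92%), and 0 were lower (1.12%). After normexp and quantile normalization Otx2 stood at 0.52, and no member reached 2-fold, where 0.907% of all genes were higher and 0.312% lower. At 1.5-fold, 3 were higher (Lefty1, Otx2 and Sall1, against 5.46%) and 3 lower (Klf5, Tdgf1 and Trim71, against 5.1%). After normexp and quantile normalization Lefty1 alone was higher (3.05%), and Klf5 and Tdgf1 were lower (1.85%). Past 2 software errors, 5 were higher (L1td1, Lefty1, Otx2, Sall1 and Tfcp2l1, against 8.1%) and 5 lower (Fgf4, Klf5, Nanog, Tdgf1 and Trim71, against 9.27%). Nanog is called here by its probe with shared sequence, and A_55_P2007708 gave -0.15 (0.23). The second Gdf3 probe, not counted here, was 1.65-fold higher. Each of the 4 arrays enters 2 of the 4 comparisons, so those with an array in common are not independent.

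**Figure D3:**
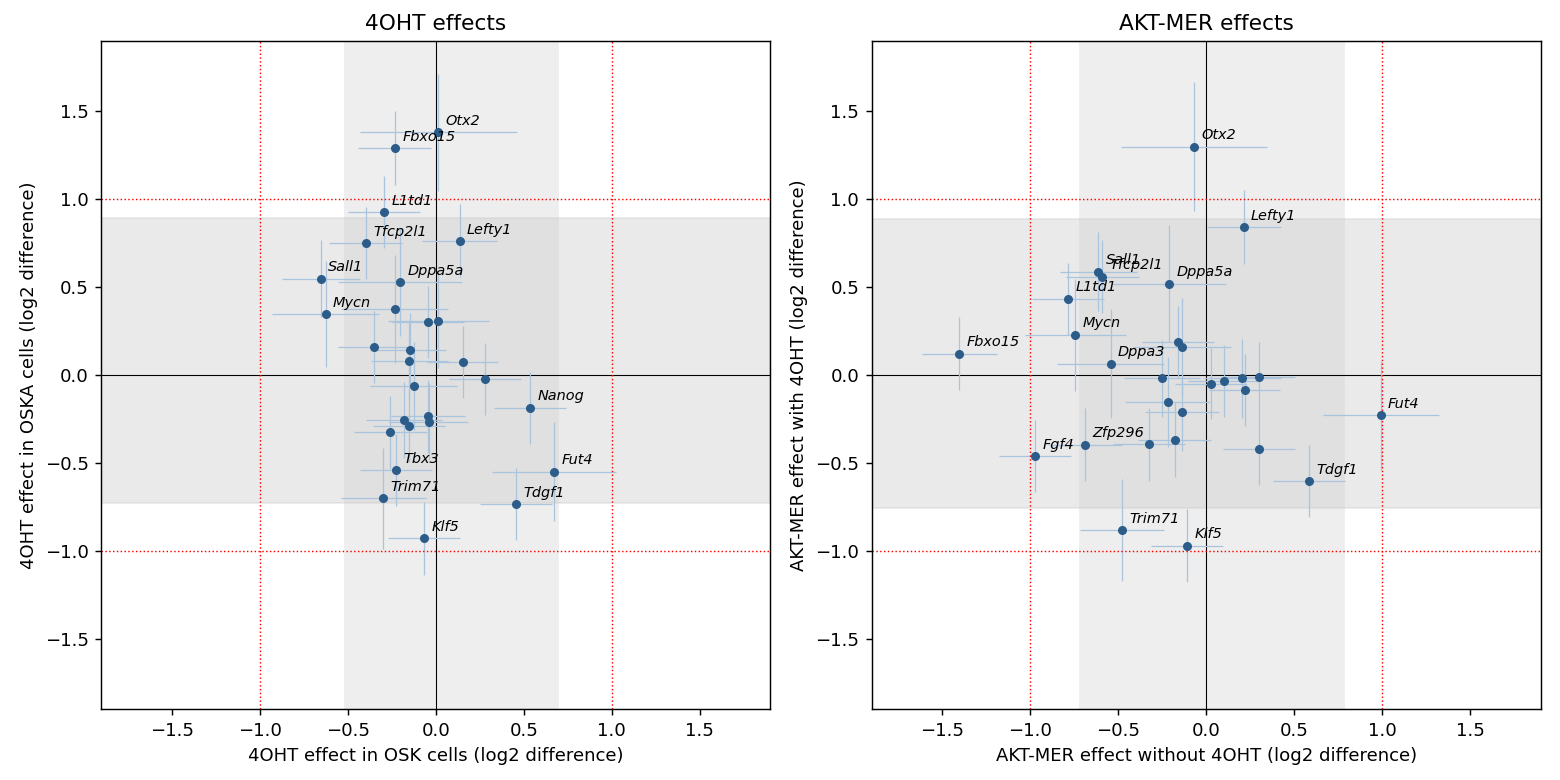
Log2 differences of the members measured in both comparisons of a panel (points, with software errors as bars): 4OHT in OSK cells (x) against 4OHT in OSKA cells (y) at left, AKT-MER without 4OHT (x) against AKT-MER with 4OHT (y) at right; within a panel the axes have no array in common. Grey bands hold the central 95% of all measured genes and dotted lines mark 2-fold, so that most members lie inside the bands, and Otx2 and Fbxo15 lie beyond 2-fold upwards at left.

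The order of the 4 arrays was counted over the 28 members measured on all of them. The highest level was on OSK − 4OHT for 13 members (31.6% of 19540 genes), on OSK + 4OHT for 3 (22.1%), on OSKA − 4OHT for 5 (19%) and on OSKA + 4OHT for 7 (27.3%). The lowest level was on OSKA − 4OHT for 12 members (18.8% of all genes), on OSKA + 4OHT for 10 (37.5%), on OSK − 4OHT for 5 (27.2%) and on OSK + 4OHT for 1 (16.6%). At least 1.5-fold lower on OSKA − 4OHT than on both OSK − 4OHT and OSKA + 4OHT were 3 members, Fbxo15, L1td1 and Tfcp2l1, as were 1.11% of all genes. Tdgf1 was the 1 member higher there by the same measure, as were 0.998% of all genes. The 4OHT difference had opposite signs in OSK and OSKA cells, each past 2 software errors, for Sall1 and Tdgf1, as for 1.7% of all genes.

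Of the 8 epithelial markers, 6 or 7 were well above background on an array (Ocln on none). Krt8 and Cldn3 were lowest on OSKA − 4OHT, as the 3 members were, but Cdh1, Epcam and Esrp1 were lowest on OSKA + 4OHT and Krt18 on OSK − 4OHT. The summed level was 2.16 on OSK − 4OHT, 1.82 on OSK + 4OHT, 1.37 on OSKA − 4OHT and 2.04 on OSKA + 4OHT. A sum gives most weight to its brightest gene, here Krt8, with levels of 1.22, 0.83, -0.01 and 0.55. On OSKA + 4OHT Cldn3 (0.13) and Krt18 (0.05) came next to it. Epcam had levels of -2.26, -2.41, -2.36 and -2.81. Cdh1, Cldn3 and Krt8 were at least 2-fold lower on OSKA − 4OHT than on OSK − 4OHT. Cdh1 (E-cadherin) was low on both OSKA arrays, with levels of -0.81, -1.40, -1.86 and -1.99. The tight junction gene Cldn3 was lower on OSKA − 4OHT than on OSKA + 4OHT, with levels of -0.38, -0.81, -1.39 and 0.13. With 4OHT in OSKA cells the splicing regulator Esrp1 had a difference of -1.27 and Cldn3 one of 1.52, and for AKT-MER with 4OHT the keratin Krt18 had one of 1.06. The summed level of the fibroblast markers was 10.87, 10.94, 11.01 and 11.03, and that of the blood cell markers was 7.13, 7.67, 7.64 and 7.54. Among the fibroblast markers only Lum, a matrix proteoglycan, passed 2-fold, with levels of 4.75, 4.5, 5.03 and 6.16. The part of these other cell types in the differences of the members was not tested.

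**Figure D4:**
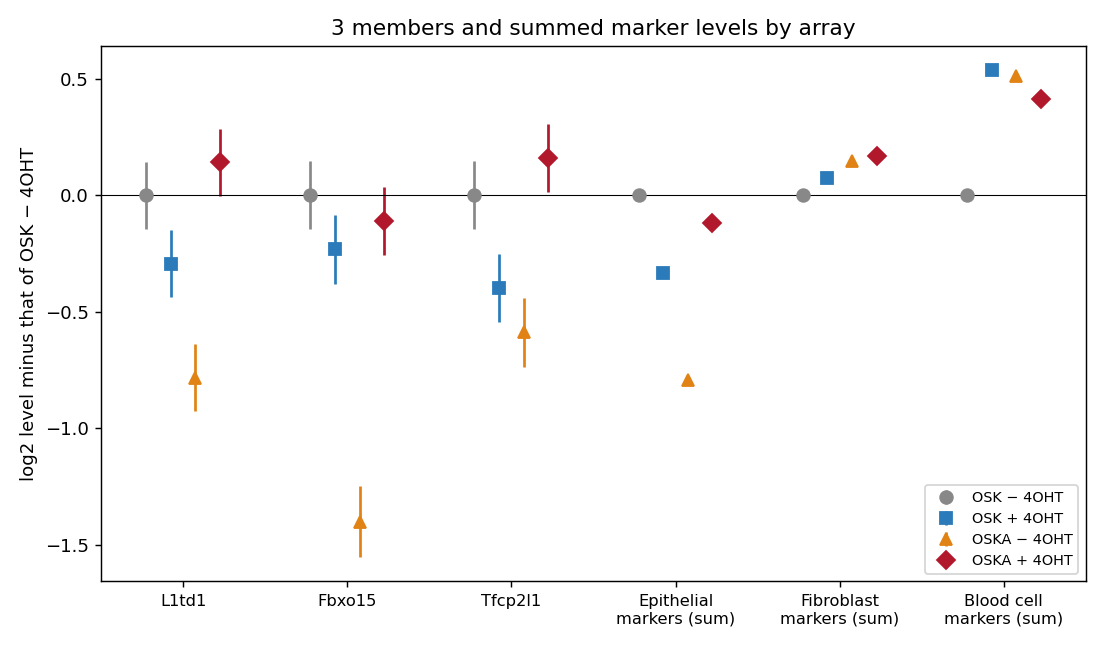
Levels of L1td1, Fbxo15 and Tfcp2l1 (brightest probes, software errors as bars) and summed levels of 3 marker lists on each array (y axis, log2 level minus that of the OSK − 4OHT array, which is 0 for each). The 3 genes and the epithelial sum, in which Krt8 weighs most, were lowest on OSKA − 4OHT, while the blood cell sum was lowest on OSK − 4OHT.

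Other genes around the network were followed as lists. Of 15 further pluripotency genes, 11 were measured in each comparison, with medians of -0.20 and 0.08 for 4OHT in OSK and OSKA cells and -0.21 and -0.07 for AKT-MER without and with 4OHT. Sox2, Tex19.1, Zscan4c and Lin28b were on no array. Only Tdh, the threonine dehydrogenase on which mouse stem cells depend, passed 2-fold. It had levels of 3.23, 3.01, 2.23 and 1.21, with differences of -1.02 for 4OHT in OSKA cells and -1.0 and -1.80 for AKT-MER without and with 4OHT. Among 11 genes of the LIF and Stat3 pathway, all measured, the medians were -0.05 and -0.42 for 4OHT and -0.08 and -0.52 for AKT-MER. The Stat3 target Pim3 had levels of 1.58, 1.23, 0.81 and -0.08, with a difference of -1.31 for AKT-MER with 4OHT. Socs3, the feedback inhibitor of the pathway, had levels of 5.92, 5.77, 5.55 and 5.01. Stat3 itself, as given above, had a difference of -0.08 in the comparison in which 10 of these 11 genes, and 57.1% of all genes, were below 0.

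Of 16 genes of the Nodal pathway, 11 were measured for 4OHT in OSK cells. The medians were -0.05 and -0.27 for 4OHT and -0.03 and -0.17 for AKT-MER. Pcsk6 (Pace4), a convertase that cleaves Nodal, had levels of 2.82, 2.80, 2.59 and 1.28. Its difference was -1.31 for 4OHT in OSKA cells and -1.53 for AKT-MER with 4OHT, the comparisons in which Lefty1 was higher and Tdgf1 lower. Foxh1, a forkhead partner of the Smad proteins, was well above background on OSKA + 4OHT alone, at -3.60. That was 2.06-fold above its own dim reading on OSKA − 4OHT, with a software error of 0.42 on the log2 scale. The 11 genes of the Lin28 and let-7 axis had medians of -0.03 and -0.24 for 4OHT and -0.09 and -0.13 for AKT-MER. Hmga2, a let-7 target, had levels of 2.58, 2.64, 2.52 and 1.62, with a difference of -1.02 for AKT-MER with 4OHT. In the 15 subunits of Polycomb repressive complex 1 and the 6 partners of Mybl2, no measured difference reached 2-fold in any comparison, and their medians lay between -0.15 and 0.07. Cbx7, a Polycomb subunit, had levels of -4.56, -3.89 and -3.64 on the first 3 arrays and was at background on OSKA + 4OHT, at least 2.19-fold lower with 4OHT in OSKA cells. Among the extraembryonic markers Tfap2c stood at -3.69 on OSK − 4OHT and -4.21 on OSKA + 4OHT and was at background on the other arrays, at least 2.33-fold lower for AKT-MER without 4OHT. Of 4 markers of the primed epiblast, 3 were well above background, with summed levels of 0.44, 0.38, 0.25 and 0.30, set mainly by Dnmt3b. The 3 differed in order. Pou3f1 had levels of -2.11, -2.41, -2.48 and -1.74, highest on OSKA + 4OHT, Fgf5 -2.57, -2.46, -2.30 and -2.45, highest on OSKA − 4OHT, and Dnmt3b -0.079, -0.13, -0.33 and -0.44, lowest on OSKA + 4OHT.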

How the data were processed

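The authors labelled 100 ng of RNA with Cy3 and deposited linear spot intensity values. Per the file headers, Agilent's Feature Extraction (10.7.3.1) subtracted background and spatial trend, and arrays were not normalized to each other. From these the log2 intensity minus the 75th percentile of the array was computed, after control spots and 104 to 155 marked spots per array were left out (62976 spots each). Spots of a probe were averaged, and each gene was represented by its probe with the highest mean. Levels rest on 1 array per group, and the number of arrays limits the precision. Where a gene was well above background on 1 side only, a bound was given against the higher of the gene's own dim reading and the lowest signal well above background. Such bounds are approximate, as some probes brighter than that lowest signal were not well above background.

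Every member was named, and errors were given for those at least 2-fold different and for Nanog and Zfp42, with further probes where the array held any. Other genes were named where at least 2-fold different, measured or as a bound, and where needed to describe a sum or a list. Some genes of the lists are not reported here. The members and lists were chosen with earlier results of these data known. RefSeq accessions named 57 of the 61 member probes, all with the symbol of the files. The place of a probe in exons or untranslated regions was not analysed here. Alternatives covered background correction (normexp, offset 50, limma 3.58.1 in R 4.3.3), normalization, filters, probe choice and threshold. The scripts (Python 3.11.15, numpy 2.4.6, pandas 2.3.3, matplotlib 3.10.9) were tested on simulated data.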

Additional observations from a re-analysis of the deposited data

Results flagged for a closer look

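Sall1 and Tdgf1 had 4OHT differences of opposite sign in OSK and OSKA cells, each larger than 2 software errors. For Sall1 the difference in OSKA cells minus that in OSK cells was 1.20 on the log2 scale, from -0.65 in OSK cells to 0.55 in OSKA cells. For Tdgf1 it was -1.19, from 0.46 to -0.73. The same quantity was larger in size for Fbxo15 (1.52), Otx2 (1.37), L1td1 (1.22) and Fut4 (-1.22), whose differences in OSK cells were within 2 software errors of 0. With 1 array per group these differences between OSK and OSKA cultures were not tested. Across all genes measured on the 4 arrays, 1.7% had such a pair of signs.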

How the results depend on the processing

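No paired analysis was possible because there was 1 array per group, and no array could be left out. The number of members at least 2-fold different was 0, 2, 1 and 1 for 4OHT in OSK cells, 4OHT in OSKA cells, AKT-MER without and AKT-MER with 4OHT. With normexp and quantile normalization it was 0 in each of the last 3 comparisons, in which Fbxo15 stood at 0.88 and -0.99 and Otx2 at 0.53 and 0.52. Of all genes, 0.838%, 0.163% and 0.907% were then 2-fold higher in these 3 and 0.158%, 0.203% and 0.312% lower. Without a filter on dim probes the number of members was 2, 4, 3 and 2, as all 40 members then entered. Of all genes 3.65%, 5.41%, 4.22% and 4.90% were 2-fold higher and 3.47%, 4.18%, 4.37% and 4.14% lower. At 1.5-fold it was 3, 8, 9 and 6 by construction. With scaling to the spike-in probes it was 7 (all lower) for AKT-MER without and 3 for AKT-MER with 4OHT, where 4.43% and 1.68% of all genes were 2-fold lower. Beside Fbxo15, these were Fgf4 (-1.41), L1td1 (-1.22), Mycn (-1.18), Zfp296 (-1.13), Sall1 (-1.05) and Tfcp2l1 (-1.03) in the first comparison, and beside Otx2, Klf5 (-1.10) and Trim71 (-1.01) in the second. The all-gene median then moved by -0.31, 0.00, -0.44 and -0.13 in the 4 comparisons, and the share of 2-fold calls that were higher from 68.8% to 15.2%, 69.0% to 69.7%, 53.8% to 4.48% and 63.2% to 47.0%. The median of the members minus that of all genes was -0.15 for 4OHT in OSK cells, -0.068 with normexp and quantile normalization and -0.20 without the filter, and for AKT-MER with 4OHT it was 0.02, and 0.080 without the filter. Under spike-in scaling 5 members changed sign for 4OHT in OSK cells (Lefty1, Lefty2, Lifr, Otx2 and Stat3), 7 for AKT-MER without 4OHT (Il6st, Lefty1, Lifr, Nanog, Stat3, Tbx3 and Utf1) and 2 for AKT-MER with 4OHT (Dppa3 and Fbxo15), all within 2 software errors of 0. So did Dppa5a, Lefty2 and Otx2 in the first and Dppa3 and Il6st in the last of these comparisons with normexp and quantile normalization. With quantile normalization alone, Lefty2 and Il6st did. Leaving out the Nanog probe with shared sequence, an alternative chosen after seeing the data, turned the 4OHT difference of Nanog in OSK cells from 0.53 to -0.53, in OSKA cells from -0.19 to 0.11, and its AKT-MER difference from 0.30 to -0.79 without 4OHT and from -0.42 to -0.15 with 4OHT. Normexp together with the 1.5-fold threshold was also added after seeing the data. Spike-in scaling shifts all probes of an array by the same log2 amount, by construction. The normexp setting adds an offset of 50 to every intensity, where Otx2 had 19.3 and 47.7 on OSKA − 4OHT and OSKA + 4OHT. The part of that offset in the changes, and the cause of the remaining ones, was not tested. Members near background, such as Foxd3, Otx2 and Fut4, are limited by signal, and the software errors of their differences reach 0.45. The median over the measured members was 0.21 in each comparison. Gbx2, also near background, had bounds only.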
